A study of Mus musculus with 4 samples.

Results

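The *Serpina* genes of mouse chromosome 12 encode clade A serpins, a family of protease inhibitors that the liver secretes into plasma, and 10 of them were followed here: *Serpina4-ps1*, *Serpina1b*, *Serpina1d*, *Serpina1e*, *Serpina3k*, *Serpina3m*, *Serpina3n*, *Serpina6*, *Serpina10* and *Serpina12*. They were taken by name, from a total of 19752 genes that the arrays named, and every probe whose accession belongs to 1 of them was kept. The rule found 13 of 55681 probes, for 9 of the 10 genes. *Serpina1b* had no probe under it. 4 genes were read by 2 probes and 5 by 1 probe, and all 13 probes passed the filter on dim signals. The genes were chosen by name with their log2 ratios between the genotypes in these same livers already known. Their values, standard errors and calls at the threshold are therefore a description and do not count as tests of these genes.

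A serpin works as a bait. The target protease cleaves an exposed loop of the inhibitor, which then snaps shut and holds the enzyme in a dead complex, while a few members of the family have lost this activity and carry hormones instead. Hepatocytes make most of the serpins in blood, among them alpha-1-antitrypsin, which protects tissue from neutrophil elastase. The mouse cluster is known for repeated duplication: human *SERPINA1* and *SERPINA3* each have several mouse counterparts, which are alike enough in sequence that a probe designed for 1 copy may also bind transcripts of another.

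Liver RNA of *Rap1*-/- mice, which lack the shelterin protein RAP1 (gene *Terf2ip*) in the whole body, was compared with liver RNA of wild-type mice to find the genes whose expression differs without RAP1. Both genotypes were C57BL6/129SV (90%:10%) and 30 weeks old by the labels, which give no sex, whereas the study's text describes females of a somewhat greater age. The deletion was made with a *cre* transgene driven by the *EIIa* promoter, which acts in the early embryo and leaves an inherited null allele, so the liver lacked RAP1 along with every other tissue. RNA came from 3 biological replicates per genotype, with integrity numbers between 6.6 and 8.7, and both genotypes were hybridised together on each of 4 two-colour Agilent arrays. The *Rap1*-deficient liver carried the dye Cy5 on the arrays of replicates 1, 2 and 3 and the dye Cy3 on a dye-swapped array, which the labels number 1 and which was therefore averaged with replicate 1. Fold changes are means over the 3 pairs, on the log2 scale, with the standard error (SE) of the limma model, and a probe passed where its false discovery rate (FDR) over all tested probes was under 0.15.

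Across all tested probes, the arrays of replicates 1, 2 and 3 had pairwise correlations (r) between 0.64 and 0.85, whereas the dye swap, with its sign turned, had correlations between -0.29 and -0.24 with each of them. The values of the *Serpina* probes are therefore given array by array. The share of spots well above background ranged between 49% and 55.4% over the channels. For *Terf2ip*, a probe was not well above background in *Rap1*-deficient liver on any of the 4 arrays, with signals between 59.1 and 79.7, against signals between 223 and 255 in wild-type liver, so it was at least 3.33-fold lower (limma, adjusted p = 0.00859). A second *Terf2ip* probe read 209 to 238 in *Rap1*-deficient liver and 99.8 to 127 in wild-type liver (log2 fold change 0.96, SE 0.09, adjusted p = 0.0329). Whether this probe lies in the deleted exons was not established here. Of the 8 hepatocyte markers, all had a tested probe and 1 passed, upward. None of the 5 probes of 4 Y-linked genes was well above background on any array. The adipocyte markers had a tested probe for 3 of 6 genes, none of which passed, and their median log2 ratio was 1.25, 0.10 and -0.02 on the arrays of replicates 1, 2 and 3 and 1.53 on the dye swap. The other cell types' markers passed upward in 0 of 7 (macrophages), 0 of 4 (neutrophils), 1 of 8 (stellate cells), 3 of 7 (endothelium), 1 of 4 (cholangiocytes) and 0 of 2 (pancreas) tested genes, and 1 macrophage and 1 pancreas marker passed downward. Their part in the serpin values was not tested, and in whole liver fewer cells of a type and less RNA per cell cannot be told apart.

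The duplicated copies are shown first by their upstream DNA, to let a reader see how alike they are. The probes' own sequences were not used here. The RefSeq promoter table (GRCm38.p6) held 5 of the 10 genes. In the 250 bases before the annotated start, *Serpina1b* and *Serpina1e* were identical at 194 of 198 aligned bases (98%), *Serpina1d* and *Serpina1e* at 177 of 183 (96.7%), and *Serpina1b* and *Serpina1d* at 223 of 238 (93.7%). The 86 bases around GTTAAT, the core letters of a binding site of the hepatocyte factor HNF1, in capitals, lie on the minus strand at chr12:103738200-103738285, chr12:103773634-103773719 and chr12:103956960-103957045, and show a stretch that the copies have in common.
Serpina1b: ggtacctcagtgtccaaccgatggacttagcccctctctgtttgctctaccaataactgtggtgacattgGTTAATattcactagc
Serpina1d: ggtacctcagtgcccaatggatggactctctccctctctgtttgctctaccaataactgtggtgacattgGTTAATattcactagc
Serpina1e: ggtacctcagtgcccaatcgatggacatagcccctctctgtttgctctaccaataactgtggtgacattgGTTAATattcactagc

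The letters GTTAAT, searched on both strands, occurred in 6.43% of all 32851 windows of this length in the table. TGACTCA, the AP-1 motif, was present upstream of *Serpina1b* and *Serpina1d* and not in the window of *Serpina1e* (4.46% of windows). GTTAAT begins 26, 16 and 78 bases before the annotated start of *Serpina1b*, *Serpina1d* and *Serpina1e*. The *Serpina1e* window therefore reaches less far upstream of the common stretch, and the DNA beyond it was not searched. TTCNNNGAA, the STAT motif (7.02%), and TTAGGG, the telomeric repeat that shelterin covers (9.32%), matched in none of the 5 windows. These are matches of letters in a short window only.

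*Serpina3n* and its paralog *Serpina3c* are the other pair worth seeing, since their mean fold changes had opposite signs, although their probes moved the same way in replicate 1 and on the dye swap. Their upstream windows were identical at 229 of 247 aligned bases (92.7%) with no gap. The *Serpina3n* stretch lies on the plus strand at chr12:104406458-104406704 and that of *Serpina3c* on the minus strand at chr12:104153873-104154119. Capitals mark the bases at which they differ.
Serpina3n: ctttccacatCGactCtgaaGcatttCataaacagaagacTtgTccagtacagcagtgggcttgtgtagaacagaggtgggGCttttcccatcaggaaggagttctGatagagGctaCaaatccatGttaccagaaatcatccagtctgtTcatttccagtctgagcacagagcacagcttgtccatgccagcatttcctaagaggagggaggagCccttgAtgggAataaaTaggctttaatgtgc
Serpina3c: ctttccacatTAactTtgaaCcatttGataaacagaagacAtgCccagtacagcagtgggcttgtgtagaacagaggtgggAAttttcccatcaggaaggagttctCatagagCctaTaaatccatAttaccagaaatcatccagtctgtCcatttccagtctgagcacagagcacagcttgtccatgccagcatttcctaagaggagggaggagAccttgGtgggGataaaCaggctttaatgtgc

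Of the 13 *Serpina* probes, 7 passed the threshold, 4 upward and 3 downward, where 34.5% of the 27513 tested probes passed in all (20.8% upward and 13.7% downward). The fold changes ran between -3.22 for *Serpina4-ps1* and 1.01 for *Serpina3n* on the log2 scale, with a median of 0.09 over the 13 probes and 0.03 over all tested probes. By the means over the 3 pairs, the cluster did not move as a block. By these means *Serpina4-ps1*, *Serpina3k* and *Serpina3m* were lower in *Rap1*-deficient liver and *Serpina3n* was higher. *Serpina6*, *Serpina10* and *Serpina1d* passed upward by their dimmer probe alone, and *Serpina1e* and *Serpina12* did not pass. On the dye swap, however, the 4 probes that passed upward were each below 0, as were the 3 that passed downward. The signals of the genotypes did not overlap on the 4 arrays for 3 probes, those of *Serpina4-ps1* and *Serpina3k* and the brighter one of *Serpina1e*, as was true of 10.5% of all tested probes. The count of passing *Serpina* probes fell to 1 without replicate 2 and to 3 without replicate 3. Over all tested probes the count fell from 9488 to 7 and to 2735 in the same settings.

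**Figure D1:**
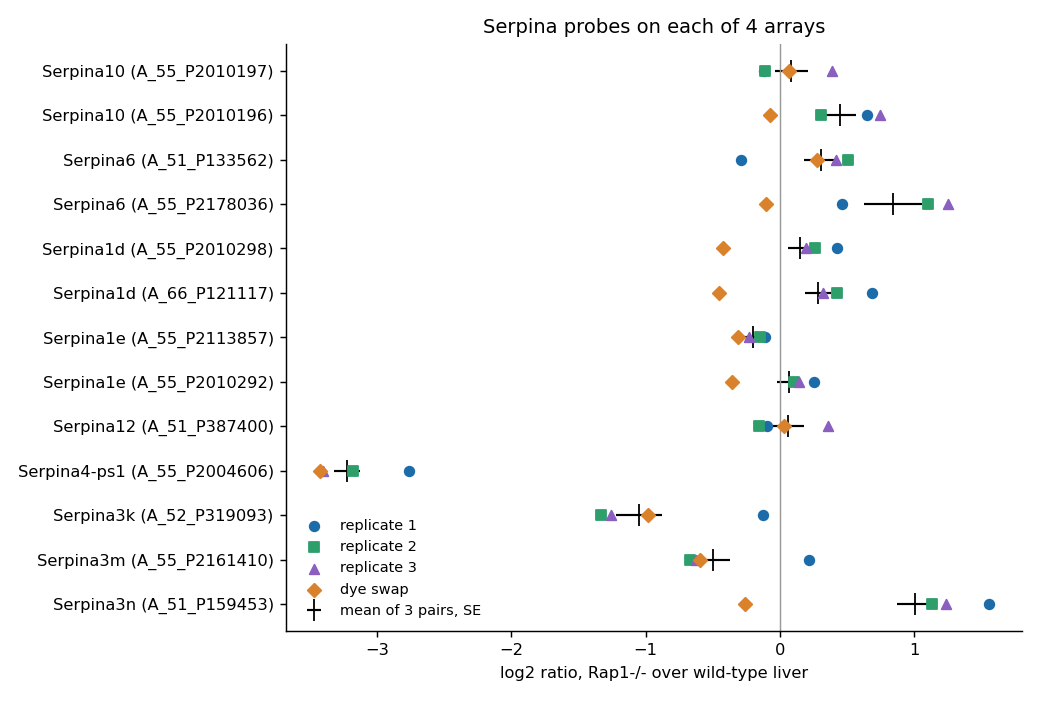
Log2 ratio of *Rap1*-deficient over wild-type liver (horizontal axis) for each of the 13 *Serpina* probes (rows) on each of the 4 arrays (coloured symbols), with the mean over 3 pairs and its SE in black. *Serpina4-ps1* lies near -3 on every array, and 6 probes have the dye swap (orange) on the other side of 0 from the 3 other arrays.

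*Serpina4-ps1* was the gene of the cluster with the greatest difference. RefSeq lists it as a transcribed pseudogene, a copy related to human *SERPINA4*, which encodes the tissue kallikrein inhibitor kallistatin. Its normalized signal was 782, 559, 467 and 415 in *Rap1*-deficient liver on the arrays of replicates 1, 2 and 3 and the dye swap, against 5310, 5059, 4939 and 4459 in wild-type liver on the same arrays. Every *Rap1*-deficient value lay below every wild-type value, and the wild-type values stayed within a narrow range. The log2 ratios on the 4 arrays were -2.76, -3.18, -3.40 and -3.43, so that both dye orientations gave the same direction and much the same size. The fold change was -3.22 (SE 0.10, n = 3 pairs), or 9.35-fold lower. The call held in all 14 alternatives, over which the value lay between -3.52 and -3.07.

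Another probe read much the same. It carries an accession that the RefSeq table does not pair with a gene, the study's annotation lists it as *Serpina4-ps1*, and it was looked at after its values were seen. Its signal was 380, 316, 263 and 267 in *Rap1*-deficient liver, against 3127, 3130, 3179 and 2622 in wild-type liver. Its log2 ratios were -3.04, -3.31, -3.59 and -3.30, and the genotypes did not overlap.

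*Serpina3k* encodes a kallikrein-binding protein of mouse plasma, made by hepatocytes. Its signal in *Rap1*-deficient liver was 81867, 41026, 41525 and 51714, in the same order of arrays, against 89165, 103286, 99232 and 102141 in wild-type liver. The genotypes did not overlap, yet the array of replicate 1 stood apart, with the highest *Rap1*-deficient and the lowest wild-type value. The log2 ratios were -0.12 for replicate 1, -1.33 and -1.26 for replicates 2 and 3, and -0.98 on the dye swap. The fold change was -1.05 (SE 0.17), or 2.07-fold lower. The probe no longer passed without replicate 2 (-0.90) or with the dye swap counted as a separate replicate (-0.92).

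*Serpina3m*, a close relative of *Serpina3k* in the contrapsin group of mouse inhibitors, followed it array by array. *Rap1*-deficient liver gave signals of 41622, 24684, 26106 and 29472, against 35737, 39325, 40261 and 44566 in wild-type liver. On the array of replicate 1 the *Rap1*-deficient value was the higher one, so the genotypes overlapped, and on the other 3 arrays it was the lower one. The log2 ratios were 0.22, -0.67, -0.62 and -0.60, and the fold change was -0.50 (SE 0.12). The call was lost in 8 of 14 alternatives, among them the dye term (-0.48), leaving out the dye swap (-0.36), replicate 2 (-0.41) or replicate 3 (-0.43). Whether these 2 probes share hybridising transcripts was not tested.

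*Serpina3n* is an acute phase serpin that inhibits granzyme B and leukocyte elastase. Its signal was 3137, 2275 and 2518 in *Rap1*-deficient liver in Cy5 and 1750 in Cy3, against 1065, 1037 and 1067 in wild-type liver in Cy3 and 2097 in Cy5. The *Rap1*-deficient value was the higher one on the arrays of replicates 1, 2 and 3 and the lower one on the dye swap, so the genotypes overlapped. Set against the same dye, *Rap1*-deficient liver was higher both in Cy5 and in Cy3. The log2 ratios were 1.56, 1.13, 1.24 and -0.26, and the fold change was 1.01 (SE 0.14), or 2.01-fold higher. With a term for dye orientation it was at 0.52 and still passed. That fit took the 4 arrays as independent, although 2 of them share a pair of livers. The probe did not pass without replicate 2 (0.94) or with the dye swap counted as a separate replicate (0.92).

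**Figure D2:**
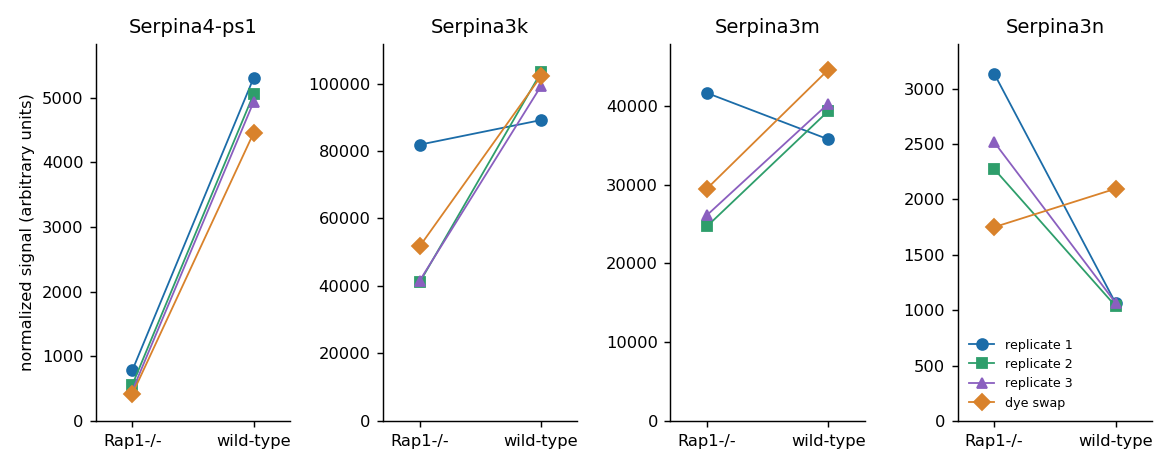
Normalized signal (linear axis from 0, arbitrary units) of 4 *Serpina* probes in *Rap1*-deficient liver (left of each panel) and wild-type liver (right), with a line for each array. The lines fall to the left on every array for *Serpina4-ps1* and *Serpina3k*, and 1 array runs against the other 3 for *Serpina3m* (replicate 1) and for *Serpina3n* (dye swap).

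*Serpina6* encodes corticosteroid-binding globulin, a serpin without inhibitory function that carries glucocorticoids in blood. Its brighter probe read 20537, 32896, 31261 and 28466 in *Rap1*-deficient liver, against 25128, 23081, 23380 and 23424 in wild-type liver. It was lower in *Rap1*-deficient liver in replicate 1 and higher on the other 3 arrays, with a fold change of 0.31 (SE 0.12), which did not pass. Its dimmer probe read 4896, 7778, 8046 and 6012 in *Rap1*-deficient liver, against 3552, 3623, 3372 and 6447 in wild-type liver, and passed at 0.85 (SE 0.22), although the dye swap ran the other way (-0.10). The brighter probe lay just outside the threshold, and the dimmer probe was lost under the dye term (0.42) and without replicate 2 (0.72) or replicate 3 (0.64).

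*Serpina10* encodes the protein Z-dependent inhibitor of coagulation factor Xa. The brighter of its probes read 21996, 21378, 28039 and 20977 in *Rap1*-deficient liver and 23801, 23028, 21419 and 20048 in wild-type liver, with a fold change of 0.09 (SE 0.12). The groups overlapped and the direction was not the same on all arrays. The dimmer probe gave 2194, 1772, 2427 and 1809 in *Rap1*-deficient liver, against 1396, 1432, 1446 and 1902 in wild-type liver. It passed at 0.45 (SE 0.12), with the dye swap at -0.07, and was lost under the dye term (0.25), without replicate 2 (0.52) or replicate 3 (0.30), and with the dye swap counted as a separate replicate (0.41).

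*Serpina1d* and *Serpina1e* are copies of the alpha-1-antitrypsin gene. The brighter *Serpina1d* probe gave log2 ratios of 0.43, 0.26 and 0.20 in replicates 1, 2 and 3 and -0.42 on the dye swap, for a mean of 0.15 (SE 0.09). The dimmer one gave 0.69, 0.42, 0.32 and -0.45, for a mean of 0.29 (SE 0.10), which passed, nearest to the threshold of the 7. Its call was lost in 8 of 14 alternatives, with values of 0.013 under the dye term, 0.12 with Agilent's processed signals and 0.08 in the authors' value table. Both therefore read higher in *Rap1*-deficient liver where that liver carried Cy5, and lower where it carried Cy3.

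The *Serpina1e* probes did not behave alike. The brighter probe read 138240, 136530, 135146 and 125120 in *Rap1*-deficient liver, against 149518, 151391, 158517 and 155389 in wild-type liver. The genotypes did not overlap, and the fold change of -0.20 (SE 0.08) did not pass, though it did in 3 of 14 alternatives. The dimmer probe gave log2 ratios of 0.25, 0.10, 0.15 and -0.36, with a mean of 0.07 (SE 0.09). Of all tested probes, 21.5% kept 1 direction on 4 arrays, and 43.9% had the dye swap opposite to the 3 Cy5 arrays. Over all 7 tested probes of *Serpina1a*, *Serpina1c*, *Serpina1d* and *Serpina1e*, 3 were lower in *Rap1*-deficient liver on 4 of 4 arrays. The other 4 were higher on the 3 Cy5 arrays and lower on the dye swap. The direction of these copies also turned with the normalization: the brighter *Serpina1d* probe was at -0.07 with Agilent's processed signals and at -0.11 in the authors' value table, and the brighter *Serpina1e* probe was at 0.06 after median centring. With the same processed signals and value table this *Serpina1e* probe was at -0.51 and -0.41 and passed. No direction is given for alpha-1-antitrypsin for this reason.

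*Serpina12* encodes vaspin, an adipokine of visceral fat. Its signal was close to background, at 86, 84.2, 121 and 84.6 in *Rap1*-deficient liver, where it was well above background on 3 of 4 arrays, and at 91.8, 93.5, 94 and 82.8 in wild-type liver, on 4 of 4 arrays. The genotypes overlapped, with a fold change of 0.06 (SE 0.12). On the array of replicate 1 and the dye swap, where the median ratio of the adipocyte markers was highest, *Serpina12* was at -0.09 and 0.03. The part of fat tissue in its signal was not tested.

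Replicate 1 and its swap allow the part of a ratio that follows the genotype (their mean) to be set beside the part that follows the dye (0.5 times their difference, replicate 1 minus swap). The dye part was above 0 for 10 probes and below 0 for 3, between -0.29 and 0.91, with a median of 0.33. The genotype part exceeded it in size for 3 probes: *Serpina4-ps1* (-3.10 against 0.33), *Serpina3k* (-0.55 against 0.43) and the brighter *Serpina1e* probe (-0.21 against 0.10). *Serpina3n* had the greatest dye part, 0.91, beside a genotype part of 0.65. These counts were not set beside those of all tested probes, so they do not show a trait particular to these genes.

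**Figure D3:**
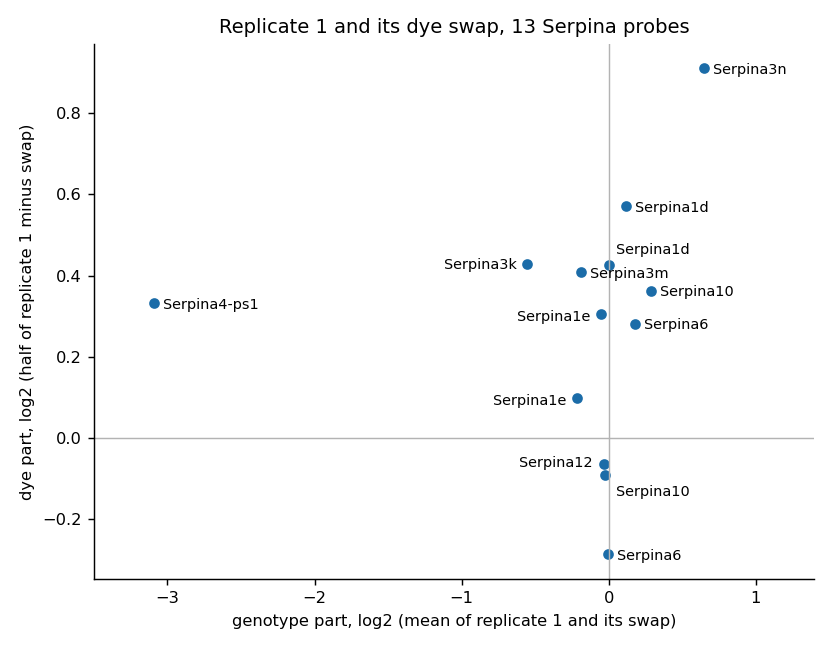
Genotype part (horizontal axis, log2) and dye part (vertical axis, log2) of each of the 13 *Serpina* probes (points), from the array of replicate 1 and its dye swap. *Serpina4-ps1* stands far to the left at -3.10, while *Serpina3n* is highest on the dye axis at 0.91.

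Values were also compared within a dye, the 3 arrays that carried a genotype in that dye against the 1 that carried the other. *Serpina3n* was higher in *Rap1*-deficient liver in both dyes, and 5 probes, those of *Serpina4-ps1*, *Serpina3k*, *Serpina3m* and both of *Serpina1e*, were lower in both dyes. The other 7 overlapped within a dye. Of all tested probes, 13% were higher and 11.2% were lower in this way.

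The rest of the cluster was read for comparison. Of 20 further clade A genes listed, 11 had a probe and 7 a tested probe, of which 4 passed downward and 0 upward by their brightest probe, with a median log2 fold change of -0.25. *Serpina9*, which encodes centerin of germinal centre B cells, was lower on all 4 arrays (-0.59, SE 0.08, adjusted p = 0.0402 by limma), with signals of 98.4 to 108 in *Rap1*-deficient liver and 143 to 159 in wild-type liver. The probe was dim, and its value was -0.45 after median centring and -1.34 with Agilent's processed signals. It passed under the dye term (-0.52), but not without replicate 2 or with the dye swap counted as a separate replicate. *Serpina11* (-0.29, SE 0.09, adjusted p = 0.0886) and *Serpina1c* (-0.25, SE 0.08, adjusted p = 0.107) were lower on all 4 arrays as well. After median centring they were at -0.11 and 0.01 and did not pass, and neither passed under the dye term or without replicate 2 or 3.

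*Serpina3c*, with the *Serpina3n*-like promoter printed above, read 13380, 8889, 8955 and 9786 in *Rap1*-deficient liver, against 11289, 13278, 13371 and 13016 in wild-type liver. It passed downward (-0.41, SE 0.13, adjusted p = 0.0917 by limma), with replicate 1 running the other way (0.25), as it did for *Serpina3m*, and the call was lost under the dye term (-0.36) and without the dye swap (-0.30), replicate 2 or replicate 3. The difference between the changes of *Serpina3c* and *Serpina3n* was not tested. *Serpina1a* (-0.17), *Serpina3b* (-0.12) and *Serpina3f* (0.64) did not pass. The *Serpina3f* value rested on replicate 3, at 2.13, and was -0.10 without it.

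**Figure D4:**
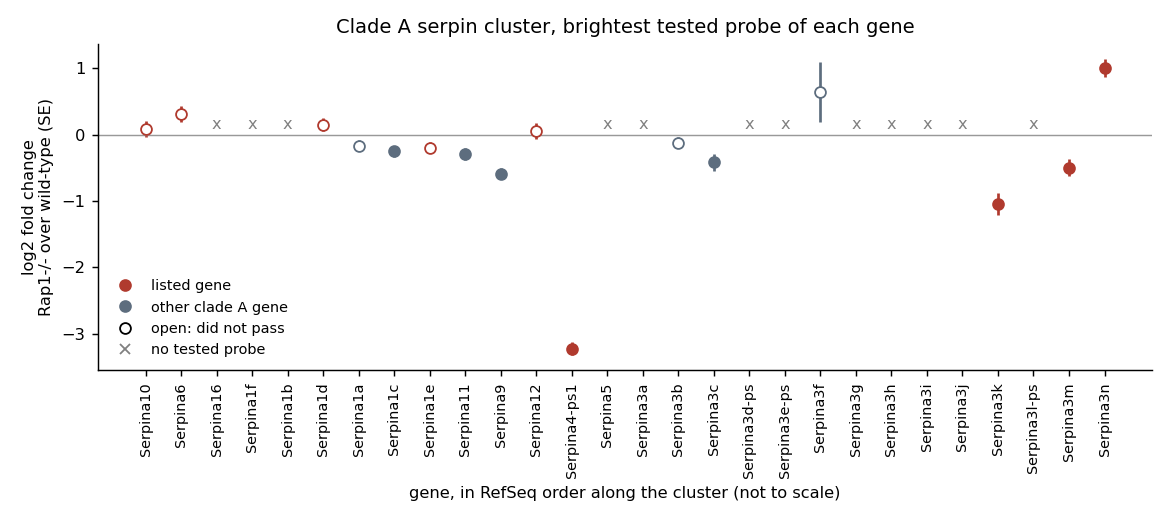
Log2 fold change of *Rap1*-deficient over wild-type liver with its SE (vertical axis), for the clade A serpin genes in RefSeq order along chromosome 12 (horizontal axis, not to scale), each by its brightest tested probe. Filled points passed the threshold, open points did not, and crosses had no tested probe. *Serpina4-ps1* at -3.22 sits between *Serpina12* at 0.06 and *Serpina5*, which had no tested probe, and *Serpina3n* at 1.01 ends the row.

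The nearest tested genes on each side of *Serpina4-ps1* in the row had smaller fold changes. *Serpina12* next to it was at 0.06 and *Serpina9*, the gene beyond, at -0.59. On the other side *Serpina5* and *Serpina3a* had no tested probe, and *Serpina3b*, the gene after them, was at -0.12. Among the nearest tested genes outside the cluster, *Ppp4r4* before it was at 0.00 and *Clmn* after it at 0.08. Neither passed (adjusted p = 0.991 and 0.647 by limma). *Dicer1*, also after the cluster, passed at -0.28 (adjusted p = 0.123 by limma). On the dye swap *Ppp4r4* was at 0.38, *Clmn* at -0.32 and *Dicer1* at 0.14. The others of the 3 nearest on each side, *Ifi27* (-0.22), *Ifi27l2b* (0.21) and *Syne3* (-0.20), did not pass.

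Over the 4 arrays, the 5 genes whose log2 ratios lay closest to those of *Serpina4-ps1*, by Euclidean distance among 13158 named genes, were *Slco1a1* (2.15), *Sult3a1* (2.30), *Phlda1* (2.69), *Cyp3a44* (2.83) and *Cish* (2.91). *Slco1a1*, an organic anion transporter of the hepatocyte membrane, had log2 ratios of -2.39, -2.08, -2.28 and -1.99, and its signal exceeded background clearly on 1 array of 4 for *Rap1*-deficient liver, where it read 71.4 to 91.8, and on 4 of 4 for wild-type liver, so its ratios and its place as the closest gene rest on a dim probe. *Sult3a1*, a sulfotransferase, had -1.51, -2.02, -2.92 and -1.95. *Phlda1*, a pleckstrin homology-like protein, had -2.17, -2.11, -1.64 and -1.80. These genes were lower in *Rap1*-deficient liver on every array. *Cyp3a44*, a cytochrome P450, and *Cish*, a feedback inhibitor of cytokine signaling, lay between -2.98 and -1.29 on each array. The distance favours genes with large decreases, since *Serpina4-ps1* was far lower on every array, and no named gene lay closer than 2.15. A shared pattern was not tested.

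Serpins outside the cluster passed upward in 4 of 14 tested genes and downward in 0, with a median of 0.09. They were angiotensinogen (*Agt*, 0.54, adjusted p = 0.0471), antithrombin (*Serpinc1*, 0.58, adjusted p = 0.0769), *Serpinb1a* (0.52, adjusted p = 0.0997), an inhibitor of neutrophil proteases, and *Serpinb8* (0.70, adjusted p = 0.103), all by limma. Under the dye term *Agt* (0.29), *Serpinc1* (0.10) and *Serpinb8* (0.041) did not pass. These 3 were lower in *Rap1*-deficient liver on the dye swap, as 6 of the 13 *Serpina* probes were opposite to the other arrays there. *Serpinb1a* was higher on all 4 arrays, with log2 ratios of 1.03, 0.28, 0.27 and 0.998, so that replicate 1 and its swap stood above the others, as the adipocyte markers did, and it was at 0.27 without replicate 1.

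Among 12 tested proteases and ligand partners of serpins, 2 passed upward and 1 downward, with a median of 0.00. *F10*, whose activated form *Serpina10* inhibits, was at 0.60 (adjusted p = 0.118 by limma) with the dye swap at -0.44, *F2*, the prothrombin gene, at 0.23 (adjusted p = 0.139) and *F11*, coagulation factor XI, at -0.34 (adjusted p = 0.132), lower on all 4 arrays. None of the 3 passed under the dye term.

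Of 18 transcription factors and signaling regulators of liver, 2 passed upward and 7 downward, with a median of -0.20. *Socs2*, a feedback inhibitor of growth hormone signaling, was at -1.14 (SE 0.11, adjusted p = 0.0358 by limma) and *Cish* at -2.0 (SE 0.32, adjusted p = 0.0402), both lower on all 4 arrays. The liver factor *Foxa2* was at -0.94 (SE 0.15, adjusted p = 0.0402) and -0.06 on the dye swap, and *Cebpa* at 1.37 (SE 0.21, adjusted p = 0.0402) and -0.13 on the dye swap. Under the dye term they were at -0.58 and 0.78 and still passed.

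*Serpina3n* was set beside 17 acute phase genes, of which 5 passed upward and 4 downward, with a median of 0.35. *Saa2* was at 1.59 (SE 0.51, adjusted p = 0.0968 by limma), with log2 ratios of -0.25, 1.38, 3.13 and 0.77, and *Lcn2* at 0.995 (SE 0.30, adjusted p = 0.0878), with 0.54, 0.54, 1.96 and 0.44. Both had their highest ratio in replicate 3, where *Serpina3n* was at 1.24. The macrophage markers (median log2 ratios of -0.75, 0.00, 1.14 and -0.27) and the neutrophil markers (-0.53, -0.31, 1.61 and -0.30) were also highest there, and their part in these values was not tested. Without replicate 3, *Saa2* was at 0.82 and no longer passed, and *Lcn2* was at 0.51. *Fga*, the fibrinogen alpha chain, was lower on all 4 arrays (-0.34, adjusted p = 0.0592), as was *Crp* (-0.41, adjusted p = 0.0673), and neither passed after median centring (-0.17 and -0.25).

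Genes that fold and degrade serpins in the endoplasmic reticulum passed upward in 3 and downward in 3 of 12 tested genes, with a median of 0.00. The disulfide isomerase *Pdia4* was at 2.86 (SE 0.46, adjusted p = 0.0402 by limma) and -1.50 on the dye swap, and under the dye term it was at 1.16 and still passed. *Edem1*, which sends misfolded glycoproteins to degradation, was at -0.34 (adjusted p = 0.0629), the chaperone *Calr* at -0.25 (adjusted p = 0.105) and its partner *Canx* at 0.25 (adjusted p = 0.131). None of these last 3 passed under the dye term.

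The count of passing *Serpina* probes depended on how dye was handled. With a term for dye orientation, 3 of the 13 passed (6.7% of all tested probes): *Serpina4-ps1*, *Serpina3k* (-0.94) and *Serpina3n* (0.52). *Serpina3k* lay only just inside the threshold there. With the dye swap counted as a separate replicate, *Serpina4-ps1* alone passed (0.302% of all tested probes). Both fits took the 4 arrays as independent, although 2 of them share a pair of livers. In the dye-term fit the single swap weighed as much as the 3 other arrays together, for every gene named. Among the named probes outside these genes, 15 lost their call under the dye term, 27 without replicate 2 and 14 without replicate 3.

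**Figure D5:**
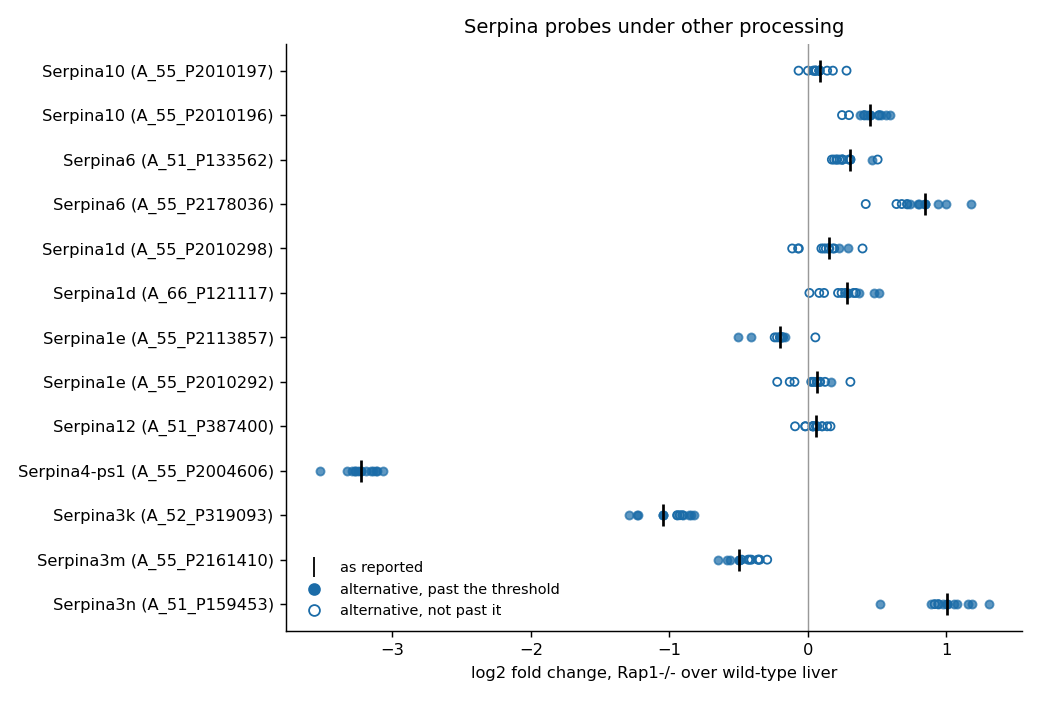
Log2 fold change of *Rap1*-deficient over wild-type liver (horizontal axis) of the 13 *Serpina* probes (rows) as reported (black tick) and under the alternatives in processing (circles, filled where the probe passed). *Serpina4-ps1* is filled throughout, between -3.52 and -3.07, and the *Serpina1d* and *Serpina1e* probes lie between -0.51 and 0.51.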

How the data were processed

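The authors deposited each scan of Agilent Feature Extraction (version 10.7.3.1 per the file headers, which differs from the version in the methods), with median spot and background intensities, processed intensities and the log10 ratio of Cy5 over Cy3. Mean intensities, which had been planned, were not used here. The deposited value table holds log2 ratios, credited to limma in the submitters' processing notes. Its column medians were -0.0119, -0.0157 and -0.0203 for replicates 1, 2 and 3 and 0.000826 for the dye swap. Set against the scans, its dye-swapped column was already turned to *Rap1*-/- over wild-type, and how its background was corrected is not stated there.

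Median intensities were corrected with normexp (offset 50) and loess-normalized within arrays in limma 3.58.1 (R 4.3.3), control spots at weight 0, outlier-flagged spots left out (5 probes lost) and repeated spots averaged. The signals printed are the channels' values once loess and quantile scaling of mean intensity had been applied. The filter kept a probe if, in 1 genotype or both, a share of at least 0.5 of its spots exceeded background clearly on each array (27513 probes, 49.4%), and no spot was saturated. The 2 arrays of replicate 1 were averaged, and lmFit and eBayes were run on 3 pairs with Benjamini-Hochberg adjustment (FDR under 0.15, as in the paper). The number of arrays limits the precision, and 2 of the 4 arrays share a pair of livers. A bound is the bright genotype's mean over the mean of the lowest signal well above background or the dim probe's own. Accessions named 26056 probes (46.8%) through the RefSeq table of GRCm38.p6, and each gene in a list is given by its brightest tested probe. Tested on simulated data (27513 probes, 200 changed), the model over 3 pairs recovered 87% of log2 changes of 1 and 100% of log2 changes of 2, with 34 false calls. The simulated pairs had independent noise and no dye effect. These figures therefore do not describe the error in arrays that carry a dye effect.

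The *Serpina* genes and all lists were chosen with earlier results of these data known. Named by rule were every *Serpina* probe, the *Terf2ip* probes, the tested clade A genes of the cluster, up to 4 passing genes of a list by p, and the 5 genes nearest to *Serpina4-ps1*. Cell type markers were given as counts and, for adipocytes, macrophages and neutrophils, also as median log2 ratios on each array. The flanking genes, the 3 nearest tested ones on each side, and the second *Serpina4-ps1* probe were added after the cluster's values were seen. Alternatives changed background correction, signal source, centring, filter, the handling of the dye swap and the replicates used. All 4 arrays came from 1 slide and 1 scan, so no other batch could be set as a block.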

Additional observations from a re-analysis of the deposited data

Results flagged for a closer look

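The dyes were exchanged on a single array, the dye swap, where *Rap1*-deficient RNA was in Cy3. For 6 of the 13 *Serpina* probes, and for 43.9% of all tested probes, the 3 Cy5 arrays moved one way and the dye swap the other. The difference between orientations was not tested, since a single array carries the swap. The log2 ratio on the dye swap was -0.072 for the dimmer *Serpina10* probe, -0.10 for the dimmer *Serpina6* probe, -0.42 and -0.45 for the *Serpina1d* probes, -0.36 for the dimmer *Serpina1e* probe and -0.26 for *Serpina3n*, each of which was above 0 on the other 3 arrays.

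Among other named genes, the same held for *Agt* (-0.091), *Serpinc1* (-0.62), *Serpinb8* (-0.93), *F10* (-0.44), *F2* (-0.074), *Cebpa* (-0.13) and *Pdia4* (-1.50), all above 0 on the Cy5 arrays. *Serpina3b* (0.050) and *Edem1* (0.058) were below 0 on the Cy5 arrays.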

How the results depend on the processing

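Of the 13 *Serpina* probes, between 5 and 9 passed under alternatives other than the dye term (3), the dye swap counted as a separate replicate (1) and leaving out a replicate, where the count lay between 1 (without replicate 2) and 9 (without replicate 1). Over all probes 9488 passed as reported, 1844 with the dye term, 83 with the dye swap counted as a separate replicate, 14496 without the dye swap, and between 7 (without replicate 2) and 12596 (without replicate 1) without a replicate. Of the probes that passed, 60.3% were higher as reported, 49.3% with Agilent's processed signals, 45.3% in the authors' value table and 87.7% after median centring, which moved the median of all tested probes from 0.03 to 0.17.

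Directions turned for 5 *Serpina* probes and 5 of the other named probes. The brighter *Serpina1d* probe came to -0.069 (Agilent), -0.11 (value table) and -0.064 (dye term), the dimmer *Serpina1e* probe to -0.13, -0.22 and -0.095 in the same settings, and the brighter *Serpina1e* probe to 0.056 after median centring. *Serpina12* came to -0.018 without background correction, -0.016 with the dye swap averaged with replicate 3, a setting chosen after seeing the data, and between -0.091 (without replicate 3) and 0.16 (without replicate 2) when a replicate was left out. The brighter *Serpina10* probe lay between -0.066 and 0.18 and *Serpina3f* between -0.10 and 1.06 over the same omissions. *Serpina1c* (0.0051), *Serpina1a* (0.091) and *Serpina3b* (0.061) turned after median centring and *F2* (-0.035) in the value table. The causes were not tested. *Serpina4-ps1* kept its direction and passed in all 14 alternatives. With the dye swap averaged with replicate 2 or 3, both chosen after seeing the data, 5 *Serpina* probes passed. The values reported are paired already, since each ratio sets the genotypes against each other within an array.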
